A study of Mus musculus with 6 samples.

Results

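Cell cycle and DNA replication genes were followed in peritoneal macrophages of FOXO3 KO and WT mice. They were 53 genes taken by symbol from a list, of the 54648 gene symbols in the deposited count table. The list was chosen with earlier results of these data known. All 53 were present, none was 0 in every library, and all 53 were among the 15608 genes that were kept after edgeR's filter on low counts, so no member was lost. By the phase in which their products act, 27 were read as G1/S genes (entry into and passage through DNA replication) and 26 as G2/M genes (entry into and passage through mitosis).

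RNA-seq had been carried out on 3 WT and 3 FOXO3 KO libraries, named here WT 1 to 3 and FOXO3 KO 1 to 3. Male and female C57BL/6 mice were used, aged 6 to 8 weeks on a standard chow diet. The FOXO3 KO mice were homozygous and lacked the gene in the whole animal, not in macrophages alone. All mice had received 3% thioglycollate into the peritoneal cavity, an irritant that draws monocytes in to mature into macrophages, and the cells were collected from the cavity 4 days later, with no sort described. Nothing in the labels says how many mice stand behind a library. If the libraries do not come from separate mice, the p-values measure only the spread between these samples, which may be technical. Library totals lay between 28083393 and 36424117 estimated counts. The members held between 38 counts (Ccne2 in WT 2) and 6202 counts (Pcna in WT 1). Levels are given as CPM, in which each count is divided by the TMM-scaled size of its library, and are compared for each gene between libraries, not between genes.

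The targeted gene was checked in every library first. Foxo3 had 4231, 3023 and 2615 counts in WT 1, 2 and 3, and 133, 2847 and 143 counts in FOXO3 KO 1, 2 and 3. The library labelled FOXO3 KO 2 therefore held Foxo3 at 104 CPM, within the WT range of 73.1 to 117 CPM, while FOXO3 KO 1 and 3 held 4.71 and 4.29 CPM. By edgeR's quasi-likelihood fit, Foxo3 had a log2 fold change of -1.40 (SE, the standard error, 1.22; edgeR adjusted p = 0.859) with all libraries and of -4.46 without FOXO3 KO 2. The exact two-sided permutation test gave p = 0.20, where the smallest possible is 0.10. Results are given over all 6 libraries as labelled. Counts of G1/S and G2/M genes at an unadjusted p under 0.05, and some other values, are given again without FOXO3 KO 2. Counts of genes higher or lower in every FOXO3 KO library, and medians of the smaller groups of members by role, include FOXO3 KO 2. WT 3 stood apart from the other libraries in another way. The summed CPM of 8 markers of resident peritoneal macrophages was 13347 in WT 3 against 2856 to 7778 in the others. Fn1 made up most of each sum, at 8541 CPM in WT 3 and 7535 CPM in FOXO3 KO 3. Each of the 8 was highest in WT 3, with Timd4 at 318 CPM there and 18.2 CPM in FOXO3 KO 3. The summed CPM of 8 B cell markers was 5661 in WT 3 against 358 to 1490 in the others. The 12 markers of macrophages in general were all detected and summed to between 15496 and 20069 CPM in every library. Results that rest on WT 3 are given without it as well.

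Cells divide by a fixed order of steps that these genes carry out. In G1, D-type cyclins with Cdk4 and Cdk6, and then E-type cyclins with Cdk2, inactivate the retinoblastoma protein and free the E2F factors, which switch on the genes of DNA replication. Later, the B-Myb and FoxM1 factors switch on the genes of mitosis through a promoter element named CHR (cell cycle genes homology region). The promoters of these genes often hold an element named CCAAT box as well. FoxO factors are known to hold cells in G1, in part through the inhibitor p27 (Cdkn1b) and through repression of D-type cyclins. Macrophages that mature from blood monocytes are mostly out of the cell cycle, while resident peritoneal macrophages can divide in place.

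In FOXO3 KO cells, the G2/M genes lay above WT in most cases, while the G1/S genes lay on both sides of it. Of the 26 G2/M genes, 25 had a positive log2 fold change, with a median of 0.56, and 18 were higher in every FOXO3 KO library than in any WT library. Of the 27 G1/S genes, 17 were positive, with a median of 0.07, and 2 were higher in every FOXO3 KO library. Over all genes tested, the median was -0.01, 48.8% were positive, and 7% were higher in every FOXO3 KO library. One G1/S gene, Cdt1, was lower in every FOXO3 KO library, as were 5.36% of all genes tested. In these bulk samples, a larger share of cells in a phase and more RNA of these genes per cell cannot be told apart.

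No member passed a false discovery rate (FDR) of 0.05 with a fold change over 1.5 in edgeR's quasi-likelihood test, in either direction, as was the case for 0% of all genes tested. The smallest adjusted p of a member was 0.714, which was also the smallest of any gene. At an unadjusted p under 0.05 in that test, 14 of the 26 G2/M genes were higher, against 4.04% of all genes tested, and 0 of the 27 G1/S genes were. One G1/S gene was lower at that threshold, against 1.65% of all genes. Without FOXO3 KO 2, the numbers were 13 of 26 G2/M genes and 0 of 27 G1/S genes higher, against 3.05% of the genes then tested, and 1 G1/S gene lower, against 1.26%. Without FOXO3 KO 3, the number of the 53 members higher at that threshold was 6, against 2.51% of the genes then tested, and without WT 2 it was 7, against 3.63%. DESeq2, an alternative test, called 2 members higher at an FDR under 0.05 and a fold change over 1.5, Cdk1 and Ccnb1, against 0.852% of the genes it tested. It called the same 2 without FOXO3 KO 2, against 0.429%.

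**Figure D1:**
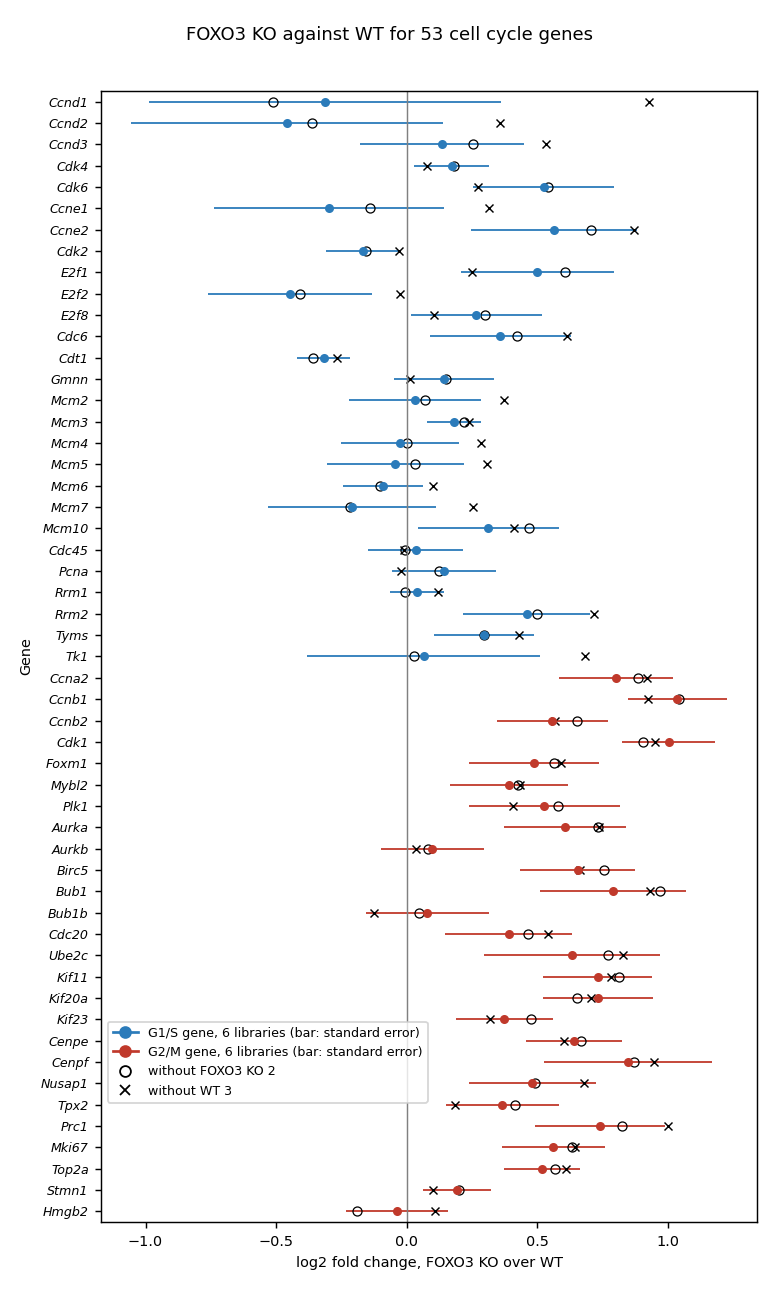
log2 fold change of each of the 53 genes, FOXO3 KO over WT, on the horizontal axis, with its standard error from the edgeR fit of 6 libraries (filled points, blue for G1/S and red for G2/M genes) and the values without FOXO3 KO 2 (open circles) and without WT 3 (crosses). The filled red points lie to the right of 0 except Hmgb2 at -0.04, and the crosses lie far from the blue points for Ccnd1, Ccnd2 and Ccne1.

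Of the 53 genes, Ccnb1 and Cdk1 had the largest log2 fold changes. Cdk1, the kinase that drives entry into mitosis, was at 5.43, 5.12 and 4.61 CPM in WT 1, 2 and 3 and at 8.79, 11.5 and 10.1 CPM in FOXO3 KO 1, 2 and 3. The groups did not overlap, and the library labelled FOXO3 KO 2, with Foxo3 at the WT level, held the highest value of all. The fitted log2 fold change was 1.0 (SE 0.18, edgeR adjusted p = 0.714), and DESeq2 gave an adjusted p of 4.94e-04. Ccnb1, the B-type cyclin that activates Cdk1, was at 4.40, 4.31 and 3.30 CPM in WT and at 7.94, 8.17 and 8.54 CPM in FOXO3 KO. The values within each group lay close together, and its log2 fold change was 1.04 (SE 0.19, edgeR adjusted p = 0.714), with an adjusted p of 7.41e-04 from DESeq2. Without FOXO3 KO 2, the DESeq2 adjusted p was 0.0294 for Cdk1 and 0.0355 for Ccnb1, and edgeR's quasi-likelihood test gave 0.793 for both. For each of these genes the exact two-sided permutation test of 3 libraries against 3 gave p = 0.10, the smallest this design allows.

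Ccna2, the A-type cyclin of S and G2, was at 6.01, 5.08 and 6.85 CPM in WT and at 9.11, 9.20 and 13 CPM in FOXO3 KO. FOXO3 KO 3 was the highest, and the log2 fold change was 0.80 (SE 0.22). Ccnb2, the second mitotic B-type cyclin, was at 3.71, 3.0 and 3.35 CPM in WT and at 4.89, 4.27 and 5.67 CPM in FOXO3 KO, with a log2 fold change of 0.56 (SE 0.21). The transcription factors that act on these genes followed with smaller values that did not reach an unadjusted p of 0.05. Foxm1 had a log2 fold change of 0.49 (SE 0.25) and Mybl2, which encodes B-Myb, one of 0.39 (SE 0.23). Mybl2 was at 2.05, 1.66 and 1.98 CPM in WT and at 2.37, 2.37 and 2.73 CPM in FOXO3 KO. In both genes the lowest FOXO3 KO library lay above the highest WT library, at 4.93 against 4.50 CPM for Foxm1.

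The promoters of Cdk1, Ccnb2 and Ccnb1 are printed to show the elements by which mitotic genes are known to be switched on together. Each window runs from 250 bases before to 50 bases after a RefSeq start, read 5′ to 3′ on the strand of the gene, on GRCm38.p6. They lie at chr10:69352863-69353162 (minus strand), chr9:70421505-70421804 (minus strand) and chr13:100786437-100786736 (minus strand). Capitals mark matches, on either strand, to the CHR letters TTTGAA, the CCAAT box CCAAT, the FoxO letters GTAAACA and the E2F letters TTTCCCGC, TTTGGCGC, TTTCGCGC or TTTGCCGC. No pair of these motifs overlaps in these windows.
Cdk1: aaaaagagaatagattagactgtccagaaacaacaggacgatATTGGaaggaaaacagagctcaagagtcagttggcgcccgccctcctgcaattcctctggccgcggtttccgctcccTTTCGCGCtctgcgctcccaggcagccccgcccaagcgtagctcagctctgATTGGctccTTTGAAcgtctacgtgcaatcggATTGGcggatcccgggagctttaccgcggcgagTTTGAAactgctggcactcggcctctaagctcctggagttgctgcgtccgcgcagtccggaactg
Ccnb2: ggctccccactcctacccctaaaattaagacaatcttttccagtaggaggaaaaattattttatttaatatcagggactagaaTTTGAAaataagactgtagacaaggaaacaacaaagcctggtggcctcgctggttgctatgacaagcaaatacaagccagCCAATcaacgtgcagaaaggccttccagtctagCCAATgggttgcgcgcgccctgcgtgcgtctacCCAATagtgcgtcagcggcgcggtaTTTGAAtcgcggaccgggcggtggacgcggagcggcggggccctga
Ccnb1: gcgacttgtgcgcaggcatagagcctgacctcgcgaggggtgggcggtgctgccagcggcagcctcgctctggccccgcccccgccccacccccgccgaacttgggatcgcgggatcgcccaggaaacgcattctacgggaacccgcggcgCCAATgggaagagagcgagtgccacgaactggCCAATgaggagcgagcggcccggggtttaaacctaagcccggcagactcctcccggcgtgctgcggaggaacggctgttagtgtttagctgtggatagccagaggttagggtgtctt

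Cdk1 had 2 CHR matches, 3 CCAAT matches and 1 E2F match in this window. Ccnb2 had 2 CHR and 3 CCAAT matches. Ccnb1 had 2 CCAAT matches and none to TTTGAA, which says only that these letters are not in this window. Windows were found for 42 of the 53 members and came to 46, since some genes have more than 1 start. Of the 21 windows of G2/M genes, 71.4% held CHR letters, 85.7% a CCAAT box and 4.76% E2F letters. Of the 25 windows of G1/S genes, 16.0% held CHR letters, 64.0% a CCAAT box and 32% E2F letters. Among all 32851 windows of the same length, the shares were 17.9%, 37.4% and 2.26%. The FoxO letters stood in 3 of the 25 windows of G1/S genes, in 0 of the 21 of G2/M genes and in 3.65% of all windows. A match describes the letters and is not evidence of a bound site.

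**Figure D2:**
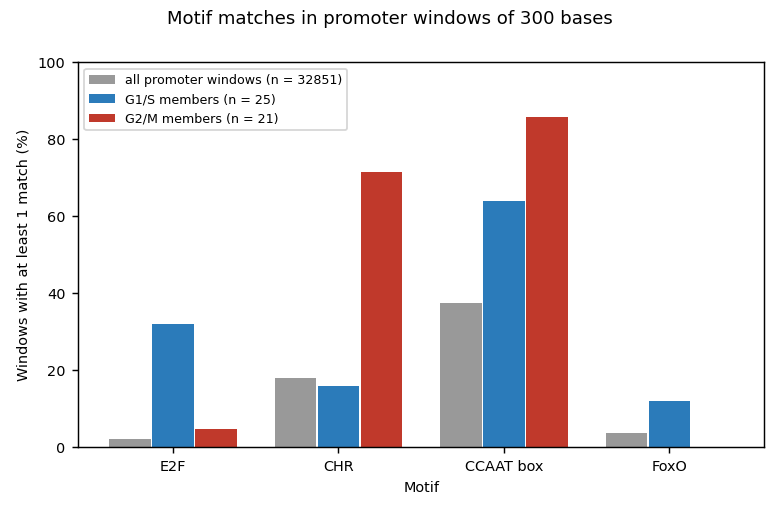
Share of promoter windows of 300 bases with at least 1 match to each motif, in percent, for all 32851 windows (grey), the 25 windows of G1/S genes (blue) and the 21 windows of G2/M genes (red). CHR matches stand in 71.4% of the G2/M windows against 16.0% of the G1/S windows, and E2F matches in 4.76% against 32%.

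Genes of the mitotic kinases, the spindle checkpoint and mitotic exit had log2 fold changes between 0.08 and 0.79, with a median of 0.57. All 8 were positive, against 48.8% of all genes tested. Of these, 4 were higher in every FOXO3 KO library than in any WT library, against 7% of all genes tested. An unadjusted p under 0.05 in edgeR's quasi-likelihood test was reached by 3, against 4.04% of all genes tested. Bub1, a kinase of the spindle checkpoint, was at 2.88, 2.26 and 3.30 CPM in WT and at 5.07, 3.58 and 5.97 CPM in FOXO3 KO. The log2 fold change was 0.79 (SE 0.28), and FOXO3 KO 2 was the closest to WT. Birc5, which encodes survivin of the chromosomal passenger complex, was at 3.91, 2.86 and 3.38 CPM in WT and at 5.53, 4.56 and 5.91 CPM in FOXO3 KO (log2 fold change 0.66, SE 0.22). Aurka, the kinase that matures centrosomes, was at 2.69, 2.54 and 3.27 CPM in WT and at 4.50, 3.54 and 4.92 CPM in FOXO3 KO (0.61, SE 0.23). Aurkb, the kinase of the same passenger complex as survivin, and Bub1b, the checkpoint protein BubR1, lay nearer to WT. Aurkb was between 7.30 and 9.72 CPM in WT and between 7.44 and 9.74 CPM in FOXO3 KO. Bub1b was at 16.0, 13.8 and 8.69 CPM in WT and at 13.6, 14.2 and 12.9 CPM in FOXO3 KO, and its log2 fold change of 0.08 turned to -0.13 without WT 3, its lowest library. The other 3 members of this group were Plk1, Cdc20 and Ube2c, a kinase, an activator and a ubiquitin-conjugating enzyme of mitotic progression. Their log2 fold changes were 0.53, 0.39 and 0.63, with SEs of 0.29, 0.24 and 0.34.

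Genes of the spindle, the kinetochore and cytokinesis had a median log2 fold change of 0.69. Of the 8, 6 were higher in every FOXO3 KO library than in any WT library, against 7% of all genes tested. Kif11, the motor that pushes spindle poles apart, was at 7.17, 5.79 and 7.05 CPM in WT and at 9.57, 9.82 and 13.9 CPM in FOXO3 KO (log2 fold change 0.73, SE 0.21). Kif20a, a motor of cytokinesis, was at 3.32, 4.20 and 3.47 CPM in WT and at 5.10, 6.75 and 6.42 CPM in FOXO3 KO (0.73, SE 0.21). The FOXO3 KO libraries lay above WT in both genes, and in Kif20a the library labelled FOXO3 KO 2 was the highest. Cenpe, a kinetochore motor, was at 8.48, 6.21 and 6.63 CPM in WT and at 10.2, 10.7 and 12.4 CPM in FOXO3 KO (0.64, SE 0.18). Cenpf, a large kinetochore protein, was at 5.07, 2.58 and 4.58 CPM in WT and at 5.78, 7.15 and 9.14 CPM in FOXO3 KO (0.85, SE 0.32), with the largest SE of the group. Prc1, which bundles the midzone of the spindle, was at 4.96, 4.55 and 7.44 CPM in WT and at 8.96, 8.32 and 11.1 CPM in FOXO3 KO. Its log2 fold change was 0.74 (SE 0.25) over all 6 libraries and 1.0 without WT 3. Kif23, Nusap1 and Tpx2, proteins of the spindle and its midzone, had log2 fold changes of 0.37, 0.48 and 0.37 and an unadjusted p over 0.05 in edgeR. Tpx2, the lowest of the group, was at 11.6, 12.3 and 7.46 CPM in WT and at 14.3, 12.5 and 13.6 CPM in FOXO3 KO, and its log2 fold change was 0.18 without WT 3.

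Of the 4 genes of chromatin and proliferation in general, Mki67 and Top2a were higher in every FOXO3 KO library, as were 7% of all genes tested. Mki67, which encodes the proliferation marker Ki-67, was at 36.7, 25.9 and 36.3 CPM in WT and at 42.6, 43.9 and 59.7 CPM in FOXO3 KO (log2 fold change 0.56, SE 0.20). Top2a, the topoisomerase that untangles sister chromatids, was at 27.5, 22.7 and 29.5 CPM in WT and at 35.2, 35.5 and 43.5 CPM in FOXO3 KO (0.52, SE 0.14). WT 2 was the lowest and FOXO3 KO 3 the highest library in both. Stmn1, a protein that takes microtubules apart, lay between 18.5 and 24.6 CPM in WT and between 24.4 and 25.4 CPM in FOXO3 KO (0.19, SE 0.13). Hmgb2, a chromatin protein also found in cells that do not divide, had the log2 fold change nearest to 0 of the G2/M genes, at -0.04 (SE 0.20). It was at 32.2, 27.4 and 38.7 CPM in WT and at 25.7, 38.6 and 31.7 CPM in FOXO3 KO, and the groups overlapped.

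**Figure D3:**
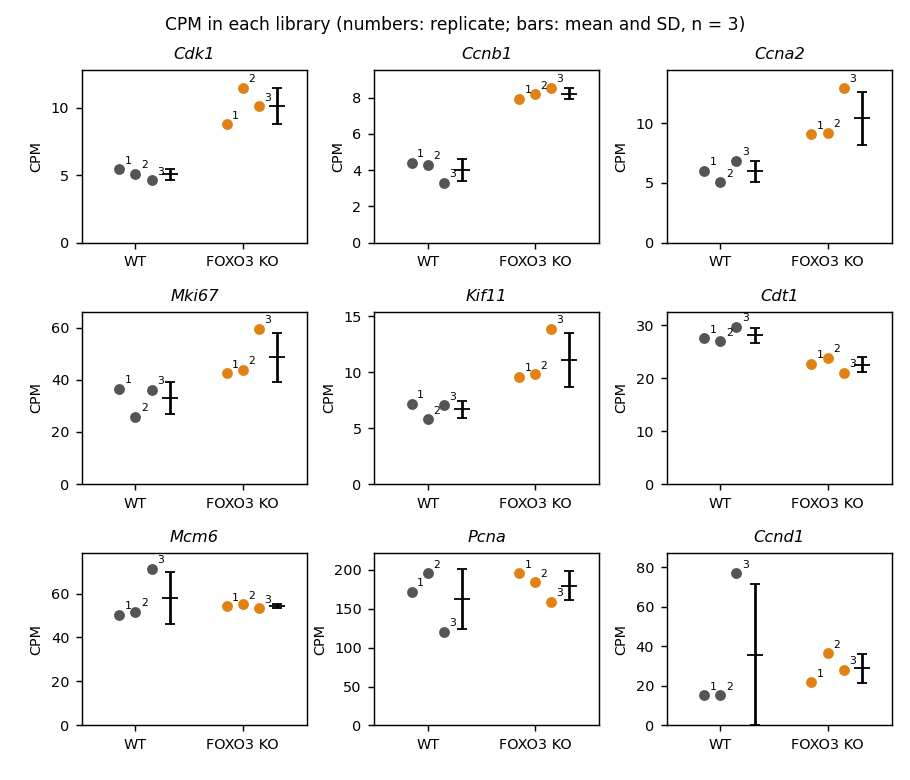
CPM in each library for 9 of the genes, with the replicate number beside each point and the mean and SD of 3 libraries as a bar to the right. The groups lie apart in Cdk1, Ccnb1, Ccna2, Mki67 and Kif11, where FOXO3 KO is higher, and in Cdt1, where it is lower, and they overlap in Mcm6, Pcna and Ccnd1.

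The size of the G2/M difference followed particular libraries. FOXO3 KO 3 was the highest of the 6 libraries in 20 of the 26 G2/M genes, against 9.55% of all genes tested, and WT 2 was the lowest in 15 of the 26, against 16.2% of all genes. FOXO3 KO 2 was the highest in 2 and the lowest in 0 of them. Relative to the mean of the 6 libraries, the median log2 level of the G2/M genes was -0.13, -0.46 and -0.20 in WT 1, 2 and 3 and 0.14, 0.14 and 0.48 in FOXO3 KO 1, 2 and 3. FOXO3 KO 2, with Foxo3 at the level of WT, lay with FOXO3 KO 1 in these genes. Across the G2/M genes, the SD of log2 CPM within a group had a median of 0.23 in WT and of 0.21 in FOXO3 KO, against 0.32 and 0.16 over all genes tested.

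**Figure D4:**
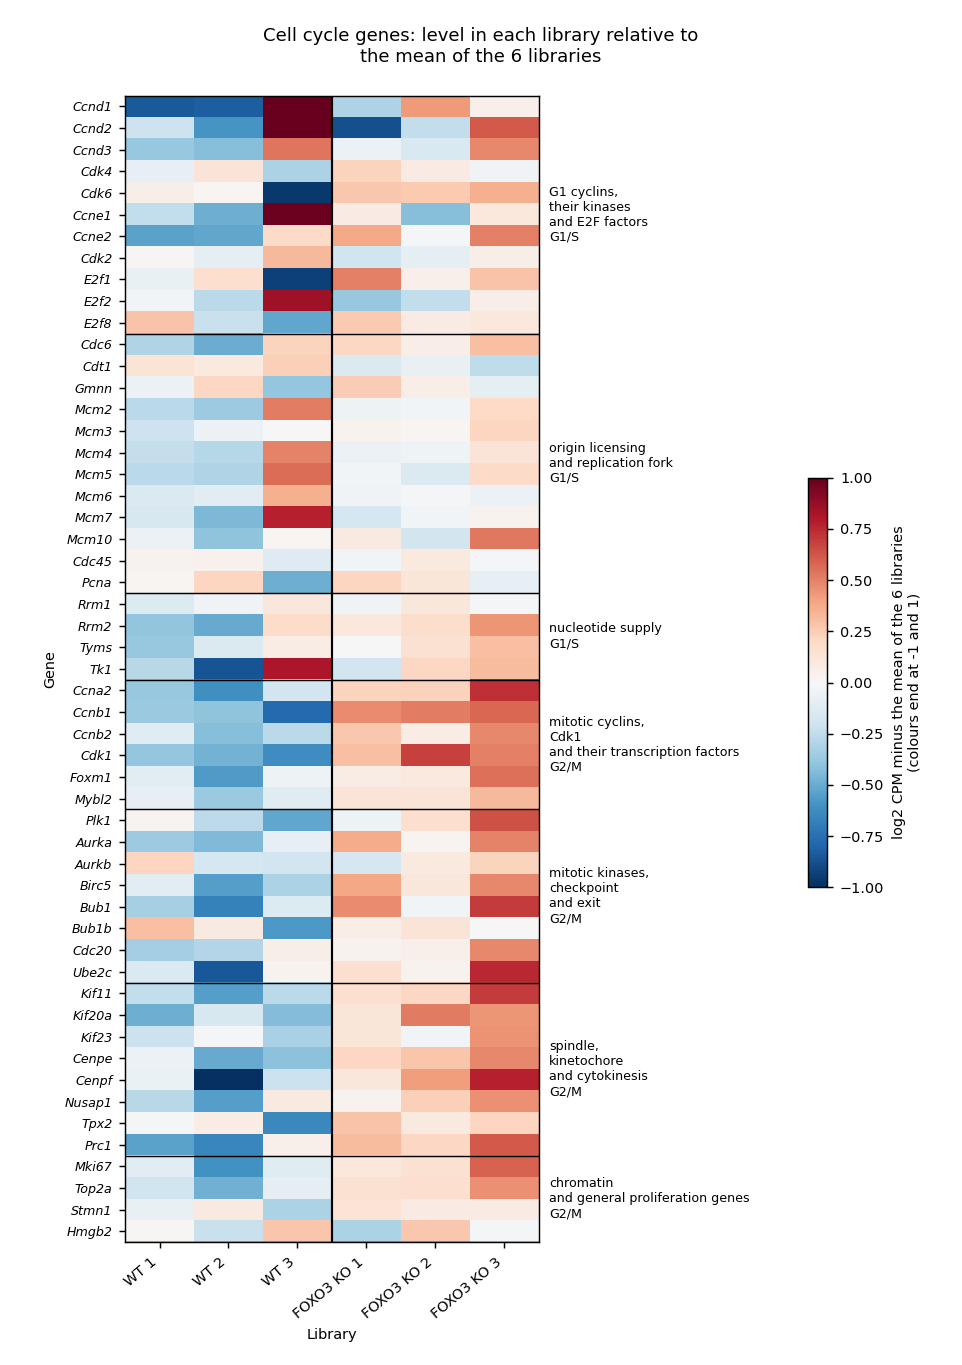
Heat map of the 53 genes (rows, by role) in the 6 libraries (columns), coloured by log2 CPM minus the mean of the gene over the 6 libraries, red above and blue below. The G2/M rows are mostly blue in the WT columns and red in the FOXO3 KO columns, and the rows of the D-type cyclins, Ccne1, E2f2 and Mcm2 and Mcm4 to Mcm7 are red in WT 3.

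Markers of mesothelial cells and fibroblasts, of neutrophils and of red blood cells were read beside the G2/M genes. The 10 markers of mesothelial cells and fibroblasts summed to between 44.7 and 80.4 CPM in WT and to 102, 517 and 183 CPM in FOXO3 KO 1, 2 and 3. Of the 10, 8 were higher in every FOXO3 KO library than in any WT library, against 7% of all genes tested. Their sum was highest in FOXO3 KO 2, and the median relative level of the G2/M genes was highest in FOXO3 KO 3. The 11 neutrophil markers summed to between 134 and 208 CPM in WT and to 483, 216 and 413 CPM in FOXO3 KO. Csf3r made up most of the sum in WT 1, 2 and 3, at 137, 138.9 and 116 CPM, and in FOXO3 KO 2, at 139.4 CPM. Its lowest FOXO3 KO value, in FOXO3 KO 2, thus lay just above its highest WT value, in WT 2. Of the 11, 5 were higher in every FOXO3 KO library, against 7% of all genes tested, and of these Ly6g was at or below 0.120 CPM throughout. Elane, Mpo, Camp and Ngp of the same list were at or below 0.247 CPM in every library. The 8 markers of red blood cells summed to between 89.6 and 156 CPM in WT and between 127 and 287 CPM in FOXO3 KO. Of the 8, 0 were higher in every FOXO3 KO library, against 7% of all genes tested. The sum in FOXO3 KO 2, 127 CPM, lay within the WT range. Tfrc made up most of the sum in WT 1, 2 and 3, at 131, 144 and 62.5 CPM. Klf1, which marks dividing red cell precursors, was at or below 0.390 CPM in every library. The part of mesothelial cells, fibroblasts, neutrophils and red blood cells in the G2/M difference was not tested.

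Among the G1/S genes, the values of the D-type cyclins depended on WT 3. Ccnd1, or cyclin D1, was at 15.2 and 15.3 CPM in WT 1 and 2, at 76.8 CPM in WT 3 and at 21.9, 36.5 and 28.2 CPM in FOXO3 KO. Its log2 fold change was -0.31 (SE 0.67) over all 6 libraries and 0.93 (SE 0.21, edgeR adjusted p = 0.500) without WT 3, where every FOXO3 KO library lay above both remaining WT libraries. Ccnd2 was at 25.9, 19.9 and 74.3 CPM in WT and at 16.3, 25.3 and 45.9 CPM in FOXO3 KO, and its log2 fold change turned from -0.46 (SE 0.60) to 0.36 (SE 0.41). Ccnd3 was at 47.8, 46.4 and 90.4 CPM in WT and at 59.6, 56.2 and 86.8 CPM in FOXO3 KO, with values of 0.13 and 0.53 without WT 3. Timd4 and Cd79a, markers of resident macrophages and of B cells, were at 318 and 548 CPM in WT 3 and at or below 51.2 and 130 CPM in the other libraries. Summed markers of plasma cells (48.5 to 122.7 CPM in WT, 26.5 to 40 in FOXO3 KO), T cells (46.4 to 139, 47.4 to 65.4), mast cells (131 to 833, 108 to 305) and dendritic cells (47.7 to 172, 57.1 to 103) were also highest in WT 3. The plasma cell sum in WT 3 was mostly Mzb1 (99.7 CPM), and Jchain, Prdm1 and Tnfrsf17 were not highest there. The dendritic cell sum in WT 3 was mostly Ccr7 (119 CPM), the only marker of that list highest there, and Xcr1 and Clec9a were lowest in WT 3. The part of these cells in the D-type cyclin levels was not tested.

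The kinases that the D-type cyclins bind showed another order. Cdk6 was at 80.0, 77.8 and 39.5 CPM in WT and at 92.7, 92.4 and 98.7 CPM in FOXO3 KO. It was higher in every FOXO3 KO library, as were 7% of all genes tested. The log2 fold change of Cdk6 was 0.52 (SE 0.27) over all 6 libraries and 0.27 (SE 0.07) without WT 3. Cdk4 lay between 88.4 and 120 CPM in WT and between 107 and 129 CPM in FOXO3 KO (0.17, SE 0.14). Ccne1 and Ccne2 encode the E-type cyclins that bind Cdk2 at the start of S phase. Ccne1 was at 3.35, 2.82 and 7.91 CPM in WT and at 4.22, 2.96 and 4.29 CPM in FOXO3 KO, and its log2 fold change of -0.30 (SE 0.44) turned to 0.32 without WT 3. Ccne2 was at 1.33, 1.34 and 2.24 CPM in WT and at 2.55, 1.93 and 2.79 CPM in FOXO3 KO (0.57, SE 0.32), and Cdk2 had a log2 fold change of -0.17 (SE 0.14). Of the E2F factors, the activators E2f1 and E2f2 had values of 0.50 and -0.45 and the repressor E2f8 one of 0.27, with SEs of 0.29, 0.31 and 0.25. E2f2 was highest and E2f1 lowest in WT 3, and without WT 3 their log2 fold changes were -0.02 and 0.25.

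Genes of origin licensing and the replication fork differed little between the groups over all 6 libraries, with a median log2 fold change of 0.03. At an unadjusted p under 0.05 in edgeR's quasi-likelihood test, 1 of the 12 was lower, against 1.65% of all genes tested, and 0 were higher, against 4.04%. The lower gene was Cdt1, which loads the Mcm helicase onto origins. Cdt1 was at 27.6, 27.0 and 29.8 CPM in WT and at 22.7, 23.9 and 21.1 CPM in FOXO3 KO. It was lower in every FOXO3 KO library, as were 5.36% of all genes tested. Its log2 fold change was -0.32 (SE 0.10, edgeR adjusted p = 0.763), -0.36 without FOXO3 KO 2 and -0.27 without WT 3. Gmnn, which encodes geminin, the inhibitor of Cdt1, had a log2 fold change of 0.14 (SE 0.19). Cdc6, the partner of Cdt1 in loading, was at 2.27, 1.98 and 3.30 CPM in WT and at 3.26, 2.96 and 3.48 CPM in FOXO3 KO (0.36, SE 0.27).

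The 6 subunits of the Mcm helicase, Mcm2 to Mcm7, had log2 fold changes between -0.21 (Mcm7) and 0.18 (Mcm3). Mcm3 was at 38.7, 43.1 and 44.6 CPM in WT and at 46.0, 45.4 and 52.1 CPM in FOXO3 KO. It was higher in every FOXO3 KO library, as were 7% of all genes tested. Mcm6 was at 50.4, 51.7 and 71.4 CPM in WT and at 54.3, 55.2 and 53.4 CPM in FOXO3 KO, and Mcm7 was at 20.5, 16.7 and 39.2 CPM in WT and at 20.3, 22.4 and 23.5 CPM in FOXO3 KO. In Mcm2, Mcm4, Mcm5, Mcm6 and Mcm7, WT 3 was the highest library of all. Without WT 3, the log2 fold changes of these genes were 0.37, 0.28, 0.31, 0.10 and 0.25. Mcm10 and Cdc45, which start and travel with the fork, had values of 0.31 and 0.04 over all 6 libraries. Pcna, the sliding clamp of the DNA polymerases, was at 172, 196 and 121 CPM in WT and at 196, 184 and 159 CPM in FOXO3 KO (0.14, SE 0.20). The promoter windows of Mcm6 and Cdt1 are printed to set E2F letters beside the mitotic promoters above, with capitals as before. They lie at chr1:128359656-128359955 (minus strand) and chr8:122567765-122568064 (plus strand). In Mcm6, 2 of its 3 E2F matches overlap on opposite strands.
Mcm6: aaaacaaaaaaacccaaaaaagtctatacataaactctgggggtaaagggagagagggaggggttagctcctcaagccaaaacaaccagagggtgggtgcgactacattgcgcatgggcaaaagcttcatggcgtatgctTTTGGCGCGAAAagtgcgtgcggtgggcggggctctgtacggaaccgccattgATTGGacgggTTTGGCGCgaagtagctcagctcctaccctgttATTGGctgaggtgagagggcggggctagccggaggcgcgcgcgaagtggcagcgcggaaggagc
Cdt1: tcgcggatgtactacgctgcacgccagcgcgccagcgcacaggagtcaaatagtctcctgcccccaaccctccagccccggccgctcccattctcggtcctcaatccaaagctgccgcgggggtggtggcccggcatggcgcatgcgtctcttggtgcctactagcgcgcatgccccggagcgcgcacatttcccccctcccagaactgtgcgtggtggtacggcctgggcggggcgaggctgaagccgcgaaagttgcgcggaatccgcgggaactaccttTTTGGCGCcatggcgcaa

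Of the enzymes of nucleotide supply, Rrm1 and Rrm2 encode the subunits of ribonucleotide reductase, Tyms makes thymidylate and Tk1 salvages thymidine. Rrm2, the subunit made mainly in S phase, was at 5.07, 4.69 and 7.60 CPM in WT and at 7.23, 7.55 and 9.11 CPM in FOXO3 KO (log2 fold change 0.46, SE 0.24). Rrm1 was at 43.2, 46.3 and 51.3 CPM in WT and at 46.1, 51.4 and 47.2 CPM in FOXO3 KO (0.04, SE 0.10). Tyms was at 5.59, 6.60 and 7.72 CPM in WT and at 7.30, 8.14 and 8.99 CPM in FOXO3 KO (0.30, SE 0.19), and Tk1 was at 4.63, 3.07 and 9.92 CPM in WT and at 4.93, 6.5 and 7.05 CPM in FOXO3 KO (0.07, SE 0.45). WT 3 lay above at least 1 FOXO3 KO library in each of these genes.

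The G1/S genes as a group thus depended on WT 3. Without it, their median log2 fold change was 0.27 in place of 0.07, and 11 of the 27 were higher at an unadjusted p under 0.05 in edgeR's quasi-likelihood test, against 6.15% of the genes then tested. These were Ccnd1, Ccnd3, Cdk6, Ccne2, Cdc6, Mcm2, Mcm4, Mcm5, Rrm2, Tyms and Tk1. One was lower, Cdt1, against 2.25% of genes. The G2/M genes moved less, with a median of 0.63 and 15 of 26 higher at that threshold. Still no member passed an FDR of 0.05, and the smallest adjusted p was 0.439, for Ccnb1. WT 3 was the highest library in 13 of the 27 G1/S genes and in 1 of the 26 G2/M genes, against 37.2% of all genes tested. It was the lowest library in 7 of the 27 and 8 of the 26, against 37.5% of all genes tested. Within WT, the SD of log2 CPM had a median of 0.41 over the G1/S genes, and within FOXO3 KO one of 0.15. Over all genes tested, these medians were 0.32 and 0.16.

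**Figure D5:**
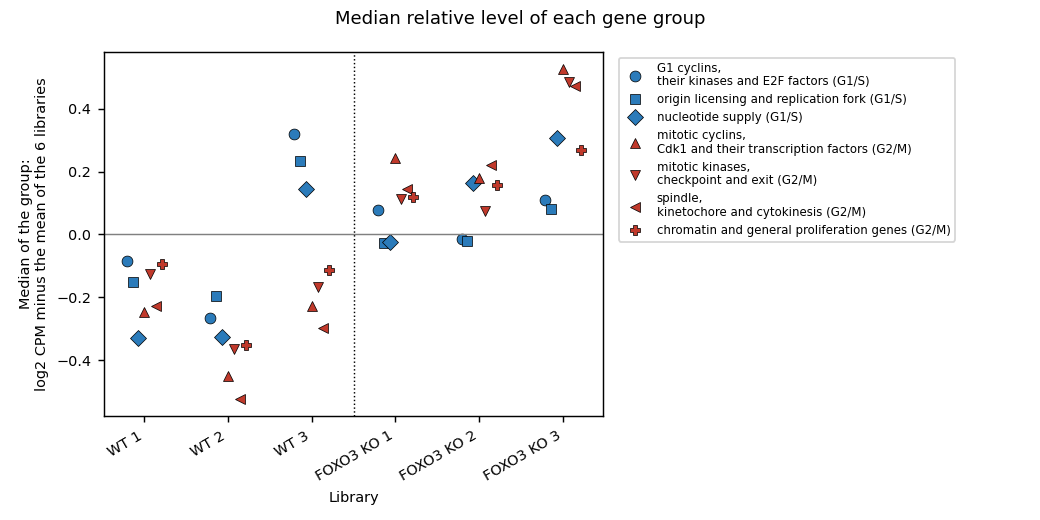
Median relative level of each of 7 groups of genes in each library, as log2 CPM minus the mean of the 6 libraries (blue for G1/S, red for G2/M groups). The red points lie below 0 in the 3 WT libraries and above 0 in the 3 FOXO3 KO libraries, and the blue points are above 0 in WT 3 and FOXO3 KO 3.

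Further genes of the cell cycle were read from lists that share no gene with the 53. They were read in the same 6 libraries and chosen with earlier results of these data known, so they are no separate test. Of 47 other genes of G2 and mitosis, 37 had a positive log2 fold change, against 48.8% of all genes tested, with a median of 0.34. Of the 47, 24 were higher in every FOXO3 KO library than in any WT library, against 7% of all genes tested. At an unadjusted p under 0.05 in edgeR's quasi-likelihood test, 12 were higher and 1 was lower, against 4.04% and 1.65% of all genes. Without FOXO3 KO 2 the numbers were 6 and 0, against 3.05% and 1.26%, and without WT 3 they were 16 and 2, against 6.15% and 2.25%. Anln, an actin-binding protein of the contractile ring, was at 7.34, 5.75 and 7.27 CPM in WT and at 11.0, 11.9 and 12.8 CPM in FOXO3 KO (log2 fold change 0.81, SE 0.17). Hmmr, a spindle protein, was at 3.32, 3.18 and 3.58 CPM in WT and at 5.35, 5.04 and 5.97 CPM in FOXO3 KO (0.70, SE 0.19). Kif2c, which takes apart microtubules at the kinetochore, was at 2.41, 1.87 and 1.43 CPM in WT and at 3.69, 3.43 and 4.14 CPM in FOXO3 KO (0.98, SE 0.27). The groups lay apart in all 3 genes. The 1 that was lower was Cdc25b, a phosphatase that activates Cdk1, at 44.01, 36.03 and 85.05 CPM in WT and at 22.6, 32.1 and 30.7 CPM in FOXO3 KO (-0.95, SE 0.34, and -0.48 without WT 3). Cdc25b was chosen for mention after its values were seen. Of 38 other genes of DNA replication and S phase, 20 were positive, with a median of 0.01, and 0 passed an unadjusted p of 0.05 in either direction by edgeR, while DESeq2 gave 1 higher. Without WT 3, 27 of the 38 were positive, with a median of 0.08, and 6 were higher by edgeR at that threshold, 15.8% of the list against 6.15% of the genes then tested. No gene of these lists passed an FDR of 0.05 in edgeR, and DESeq2 called Anln and Hmmr higher over all 6 libraries and neither without FOXO3 KO 2.

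Of 10 CDK inhibitors and pocket proteins, which hold the cycle back, 8 had a negative log2 fold change and 2 a positive one, where 48.8% of all genes tested were positive. The median was -0.17 over all 6 libraries, -0.20 without FOXO3 KO 2 and -0.08 without WT 3. Of the 10, 3 were lower in every FOXO3 KO library, against 5.36% of all genes tested. At an unadjusted p under 0.05 in edgeR's quasi-likelihood test, 1 was lower, against 1.65% of all genes tested. Cdkn1b, which encodes p27, was at 111, 104 and 152 CPM in WT and at 56.9, 91.5 and 70.6 CPM in FOXO3 KO. All FOXO3 KO libraries lay below WT, and FOXO3 KO 2 was the closest to it. The log2 fold change was -0.75 (SE 0.23, edgeR adjusted p = 0.733) over all 6 libraries and -0.94 (SE 0.22) without FOXO3 KO 2. Without WT 3, the highest library for Cdkn1b, it was -0.55 (SE 0.19). Cdkn1a and Rb1 were named after their values were seen. Cdkn1a, which encodes p21, lay between 43.4 and 98.4 CPM in WT and between 71.4 and 92.6 CPM in FOXO3 KO (0.15, SE 0.30, and -0.12 without WT 3). Rb1, the retinoblastoma gene, had a log2 fold change of -0.03 (SE 0.09).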

How the data were processed

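RNA-seq of 3 WT and 3 FOXO3 KO libraries of peritoneal cells was analysed from the table of estimated counts per gene symbol that the authors deposited, without normalization. The submitters' processing notes name STAR 2.6.1d, kallisto 0.46.0, DESeq2 and mm10 without saying what each was used for, and the annotation is not given in the sources used here. Within 0.01 of a whole number lay 81.4% of values, and all were rounded.

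FOXO3 KO was set against WT by edgeR 4.0.16 (R 4.3.3, with filterByExpr, TMM, glmQLFit and glmQLFTest) with p-values adjusted by Benjamini-Hochberg across every gene kept. The SE of a log2 fold change is its absolute value divided by the root of F. A gene was called at an FDR under 0.05 with a fold above 1.5, the settings given in the methods of the study. Relative levels used log2 CPM with a prior count of 2. DESeq2 1.42.0, limma-voom (limma 3.58.1), the likelihood ratio test, other scalings and filters, a replicate block and each library left out in turn were alternatives. The fits were tested on simulated data.

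The members, role lists and marker lists were chosen with earlier results of these data known. Values per library are given for the members with the highest and lowest log2 fold change of each role group, those with an unadjusted p under 0.05 and the 6 genes that the rule lists (Mki67, Top2a, Ccnd1, Ccne1, Pcna and Cdk1), with further members added after their values were seen, and of the wider lists for the 3 smallest p per list among those under 0.05. Promoter windows came from RefSeq (GRCm38.p6, which shares its coordinates with mm10). The most alike pair of libraries, WT 1 and FOXO3 KO 2, had a chi-square of 22.0 per degree of freedom, so no library was counted as a duplicate. FOXO3 KO 2 had 26.8 with FOXO3 KO 1 and 33.0 with FOXO3 KO 3. FOXO3 KO 1 was also most alike to a WT library, WT 2, at 22.1. Whether the label of FOXO3 KO 2 is right was not tested. With 3 libraries a group, counts of the low members limit the precision.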

Additional observations from a re-analysis of the deposited data

How the results depend on the processing

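The median log2 fold change of the members moved by less than 1 SD of the medians of the WT libraries under all 16 alternatives. The same held within the G1/S and the G2/M genes. That SD takes in WT 3, so it is no guide to how far the medians rest on that library. It was 0.26 for the G1/S genes, whose median was 0.07 over all 6 libraries and 0.27 without WT 3. Leaving out 1 library gave 0.23 to 0.42 for all members, -0.02 to 0.27 for G1/S genes and 0.40 to 0.64 for G2/M genes. Members called at an FDR under 0.05 numbered 0 in both directions, except for 2 higher by DESeq2 and 2 by DESeq2 without FOXO3 KO 2. Members higher at an unadjusted p under 0.05 numbered 8 with library size alone and 24 without both FOXO3 KO 2 and WT 3. The share of all genes was not computed for those settings, so these counts are not read as results about the members. With 1 library left out, they ran from 6 without FOXO3 KO 3 to 26 without WT 3. The shares of the genes then tested were 2.51% and 6.15%. Members lower at that threshold numbered 0 by the likelihood ratio test and 0 to 1 with 1 library left out. Cdt1 was lost without WT 1, FOXO3 KO 1 or FOXO3 KO 3. The cause was not tested. The log2 fold change of Foxo3 ran from -4.46 to -0.87 with 1 library left out, and was -4.64 without both FOXO3 KO 2 and WT 3 (adjusted p = 0.00182 from edgeR) and -4.46 by DESeq2 without FOXO3 KO 2 (adjusted p = 1.86e-38). The fits without both libraries and by DESeq2 without FOXO3 KO 2 were chosen after the data were seen.

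Signs turned for members near 0 or with an extreme WT 3. Each omission in turn was followed only for the members that the rule names. Of the other members, those whose sign turned without WT 3 were Mcm4 (-0.02 to 0.28), Mcm5 (-0.04 to 0.31), Mcm6 (-0.09 to 0.10), Mcm7 (-0.21 to 0.25) and Cdc45 (0.04 to -0.01). With 1 library left out, the log2 fold change ran from -0.69 to 0.93 for Ccnd1, -0.95 to 0.36 for Ccnd2, -0.55 to 0.32 for Ccne1, -0.022 to 0.30 for Pcna, -0.022 to 0.12 for Rrm1, -0.13 to 0.27 for Bub1b and -0.19 to 0.11 for Hmgb2. Without both libraries, it was 0.72 for Ccnd1, 0.44 for Ccnd2, 0.46 for Ccne1, -0.049 for Pcna and -0.17 for Bub1b. Ccnd1 was 0.088 by limma-voom.

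With the replicate number of the labels as a replicate block, 12 members were higher and 0 lower at an unadjusted p under 0.05. The share of all genes was not computed for this fit, so the count is not read as a result about the members. In the same fit, 0 members passed an FDR of 0.05, and Ccnd1 turned to 0.13. The deviations of same-numbered libraries correlated at 0.26, -0.07 and 0.52 across genes, and WT 2 correlated better with FOXO3 KO 1 than with FOXO3 KO 2, so the numbers were not taken to pair the libraries.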

Other observations

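Cdkn2a, which encodes the inhibitors p16 and p19 of the Ink4a/Arf locus, was at 6.37, 2.86 and 8.22 CPM in WT 1, 2 and 3, at 1.17 and 0.929 CPM in FOXO3 KO 1 and 3 and at 12.5 CPM in the library labelled FOXO3 KO 2. The 2 lowest libraries were those with Foxo3 below 5 CPM. By edgeR it had a log2 fold change of -0.26 (SE 1.03) with all libraries and of -2.47 (SE 0.55, edgeR adjusted p = 0.793) without FOXO3 KO 2, where DESeq2 gave an adjusted p of 0.00309. The gene was chosen after its values were seen.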
